A study of Arabidopsis thaliana with 4 samples.

Results

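The tiles of plates TA52 to TA99 are the array features whose codes begin with TA and a plate number from 52 to 99 and which have a value on all 4 arrays. Of 4608 such tiles listed, 4602 were measured, which is 21.2% of the 21732 measured features of the array. They came from 48 plates, 44 of them with all 96 wells. TA78, TA95 and TA98 held 95 measured tiles each and TA94 held 93. The range begins where a long run of plates with high scores ends, at TA51, so the values of these same arrays drew its lower edge. Its levels are therefore given as a description, and no difference from the rest of the array was tested.

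The DNA came from 10 day old seedlings of Arabidopsis thaliana, ecotype Col-0 (written col-0 in the labels), grown without treatment for 10 to 11 days in half-strength (0.5X) liquid MS medium at 22 °C with a 16 hour photoperiod. Chromatin was precipitated with an antibody against histone H3 and compared with its own input DNA. There was 1 group with 2 replicates, I and II in the labels, called replicates 1 and 2 here. A replicate was read on 2 arrays, with Cy3 and Cy5 exchanged between them. Both arrays of a dye swap carried identical values at all 21732 features, so n = 2 throughout, and precision is limited by this small number of arrays. The labels do not state that separate cultures were used for the replicates, so tests measure a spread that may be technical, and whole seedlings mix many cell types and organs.

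Histone H3 is one of the core histones around which DNA is wrapped to form the nucleosome. An antibody against H3 itself reads how much histone-bound DNA is recovered at a site, whatever modifications the histone carries. In plants, nucleosomes are generally depleted just upstream of active genes, and transposon-rich heterochromatin is generally densely packed with them. The deposited value is a ratio score of the precipitate and input channels. No source used here states its base or its numerator, so "above" and "below" refer to the score relative to each array's median and carry no direction for H3. None of the 4602 codes matched an entry of the TAIR10.1 gene table (0 of 4602), so no tile is placed on a chromosome or in a gene and no sequence is shown.

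The tiles lay slightly below the array median as a whole, with a wide spread on both sides. In replicate 1 their median was -0.024 score units, with the middle 50% of tiles between -0.16 and 0.11 and extremes of -2.43 and 0.97. In replicate 2 the median was -0.062, the middle 50% lay between -0.33 and 0.19, and the extremes were -2.01 and 1.15. The mean of the replicate medians was -0.043 ± 0.027 (SD, n = 2). Plates TB00 to TB49, another long range without a run of high plates, had medians of -0.036 and -0.057 (4795 tiles), and plates TA01 to TA21 had 0.0058 and -0.030 (2002 tiles). All of these medians lie within the middle 50% of single tiles in either replicate.

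A tile was called when its mean over the replicates departed from the array median in limma's moderated test over all 21732 features, with Benjamini-Hochberg adjustment at 5%. All features shared 1 residual SD in that fit, and the smallest distance called was 0.26 units. In plates TA52 to TA99, 577 tiles (12.5%) were called above, beside 17.0% of all features, and 1078 (23.4%) were called below, beside 19.4% of all features. The balance of the sides moved with the centre, to 735 above and 845 below when the replicates were centred on plates TB00 to TB49, 329 and 1308 on the mode, and 1349 and 167 with no centring. With limma's trend and robust variance options together, 249 were above and 12 below. By a rule of size without a test, at least 0.25 units from the median on the same side in both replicates, 324 tiles were above (7.04%, beside 11.8% of all features) and 588 were below (12.8%, beside 10.9%). A mean at least 0.5 units above was found at 131 tiles (2.85%, beside 6.65%), and one at least 0.5 units below at 144 tiles (3.13%, beside 3.23%). Taken singly, replicate 1 had 67 tiles this far above and 54 this far below, while replicate 2 had 282 and 526. Over all features replicate 2 was also the wider one, with an SD of 0.39 units compared with 0.25 in replicate 1. Shares over all features were not counted for single replicates. The plates with the highest scores of the array lie outside this range, and nothing is read from these shares and counts about the tiles.

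Replicate 2 spread more widely than replicate 1, and this held for moderate scores but not for the lowest ones. The SD over tiles was 0.23 units in replicate 1 and 0.36 in replicate 2. Over the 4602 tiles Pearson's r between the replicates was 0.79 and Spearman's rho was 0.78, as a description over tiles that share arrays. Both replicates had the same sign at 3691 tiles (80.2%). Among the 999 tiles with a mean between -0.5 and -0.25 units, the average was -0.24 in replicate 1 and -0.47 in replicate 2. Among the 131 tiles above 0.5 the averages were 0.50 and 0.75, and replicate 2 lay farther from the median at 117 of them. At the 11 tiles with a mean of -1 or lower the averages were -1.61 and -1.51, and replicate 1 lay farther from the median at 7 of the 11. Bins by the mean favour tiles that are extreme in either replicate, so these averages describe the bins alone.

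**Figure D1:**
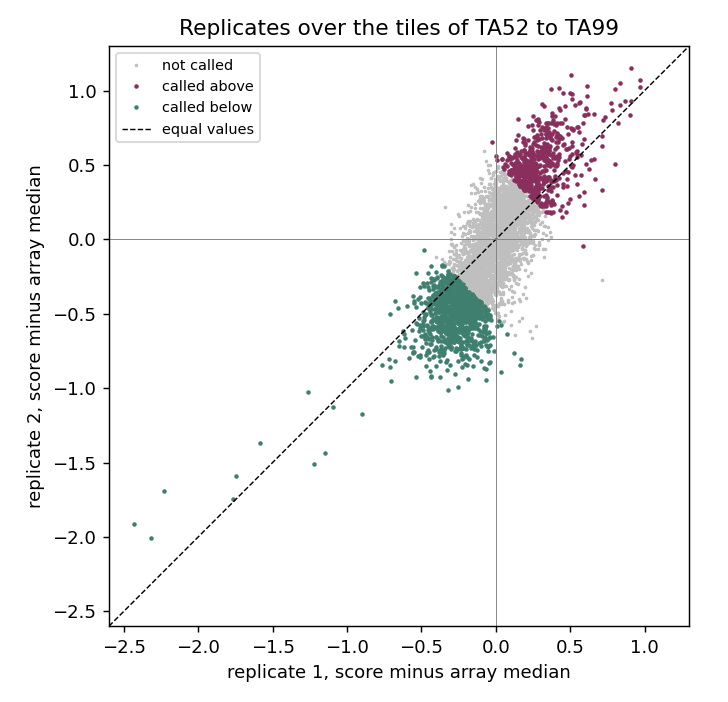
Score minus the array median (score units) in replicate 1 (horizontal) and replicate 2 (vertical) for the 4602 tiles, coloured by the limma call, with a dashed line of equal values. The cloud is steeper than the line around the centre, while the 11 tiles with means at or below -1 fall on both sides of it, 7 of them farther from zero in replicate 1.

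Replicates more than 0.5 units apart were found at 144 tiles (3.13%), and 1 tile had replicates more than 1 unit apart. A call uses the mean and 1 residual SD shared by all features, so it does not require the replicates to agree. Of the 144 tiles, 110 were called, and the share called among such tiles over all features was not counted. Replicate 2 was the lower one at 113 of the 144 tiles and the higher one at 31, while over all 4602 tiles it was the lower one at 56.6%. The 144 tiles were spread over 42 of the 48 plates. Most of them in a single plate, 13, were in TA65, which is named because of this count. Outside the range, 386 tiles (2.25%) were as far apart.

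The plates differed modestly from each other. Plate medians ran from -0.13 to 0.13 units in replicate 1 and from -0.37 to 0.15 in replicate 2. Of the 48 plates, 9 had medians above the array median in both replicates, 24 had medians below it in both, and 15 had opposite signs. Of the variance of the tile means, 9.27% lay between plates, and the remainder between tiles of the same plate. Between replicates, the medians of the 48 plates had a Pearson's r of 0.77 and a Spearman's rho of 0.78, as a description. Medians of successive plates had a correlation of r = -0.035 over 47 steps, and neighbouring plates differed by 0.083 units in the median step. The largest step, 0.30 units, separated TA80 from TA81, where medians were 0.060 and 0.045 in replicates 1 and 2, and TA81 is named for it.

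TA95 had the highest plate median, with 0.13 units in replicate 1 and 0.13 in replicate 2. In it 26 of 95 tiles were called above and 3 below, the fewest below in any of the 48 plates. TA75 followed with 0.11 and 0.12, and with 22 tiles above and 6 below. TA71 had 0.11 and 0.081, and TA62 had 0.076 and 0.097 with 35 tiles above, the most of any plate here. TA75 and TA95 were the only plates at least 0.1 units above in both replicates, and after both replicates were scaled to the same spread no plate was. In these 4 plates both replicates lay above the array median.

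TA80 had the lowest median, with -0.12 units in replicate 1 and -0.37 in replicate 2, and 45 of its 96 tiles were called below. TA68 had -0.12 and -0.29, with 40 tiles below and 0 above. TA60 had -0.096 and -0.25, with 43 below and 9 above. TA86 had -0.085 and -0.24, with 35 below and 4 above. Replicate 2 was lower than replicate 1 in all 4. Medians at least 0.1 units below in both replicates were found in 5 plates, TA66, TA68, TA74, TA78 and TA80, of which TA66, TA74 and TA78 are named for this count. That count was 0 when the replicates were centred on plates TB00 to TB49 and 13 after scaling to the same spread.

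**Figure D2:**
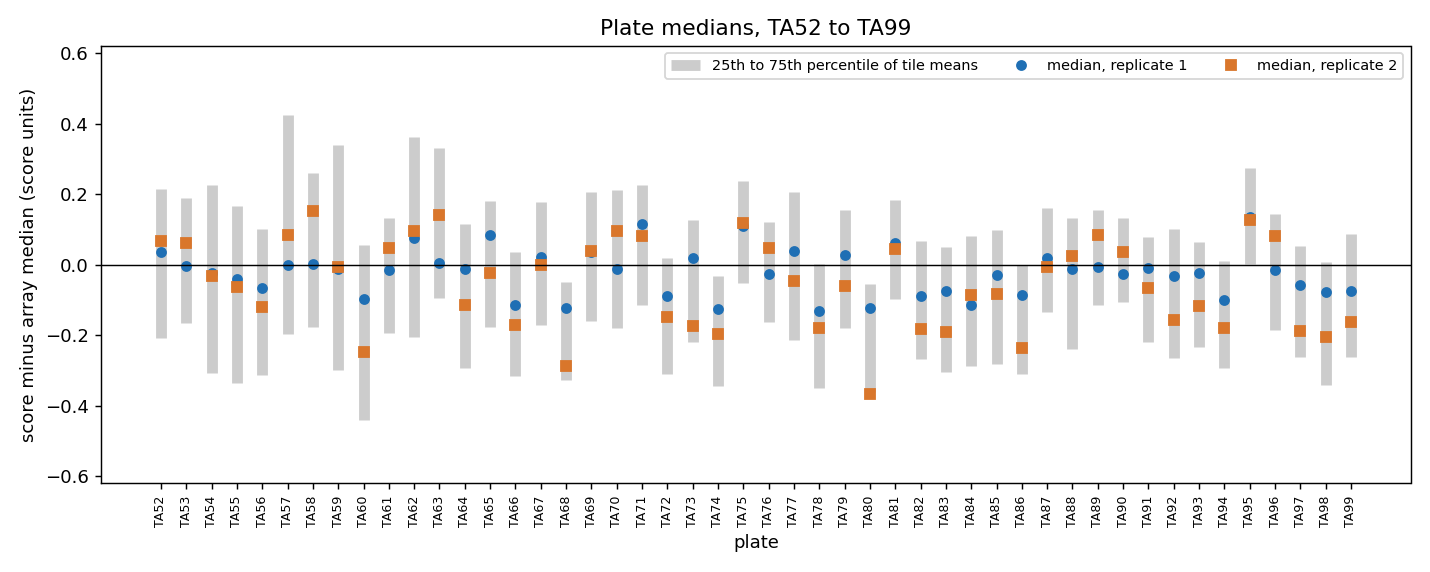
Median score minus the array median (score units) of each plate in replicate 1 (circles) and replicate 2 (squares), over the 25th to 75th percentile of the tile means (grey bars). The medians stay between -0.37 and 0.15 units, and the grey bars of 43 of the 48 plates span zero.

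Calls above the median were most frequent in the first plates of the range. The 48 plates were divided, after the values had been seen, into 4 blocks of 12. In TA52 to TA63, 251 of 1152 tiles (21.8%) were called above, beside 17.0% of all features. In TA64 to TA75 the count was 138 of 1152 (11.98%). The share was 7.91% in TA76 to TA87 (91 tiles) and 8.46% in TA88 to TA99 (97 tiles). The first block alone thus had a larger share above than all features, and each later block had a smaller one. With this centre calls below varied less, with shares of 24.3%, 23.3%, 25.7% and 20.4% in the same order, beside 19.4% of all features. Without centring, the shares of the blocks were 37.6%, 28.9%, 24.4% and 26.3% above. They were then 6.16%, 2.86%, 3.13% and 2.35% below. The blocks were not tested against each other, since tiles of a plate are not replicates and the blocks share the arrays.

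The same order of the first block and the others appeared in each replicate taken alone. In replicate 1, scores at least 0.5 units above the median were found at 39, 14, 4 and 10 tiles of the successive blocks. In replicate 2 the counts were 172, 50, 24 and 36. Scores at least 0.5 units below were found at 32, 3, 8 and 11 tiles in replicate 1 and at 166, 140, 127 and 93 in replicate 2. The first block thus held the most tiles far from the median on both sides. For single replicates no share over all features was counted, so these counts compare the blocks alone. Its SD within plates was 0.34 units, compared with 0.24, 0.24 and 0.23 in the following blocks. The median SD between replicates at a tile was also largest there, 0.13 units, compared with 0.12, 0.11 and 0.10, and its part in the counts was not tested.

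**Figure D3:**
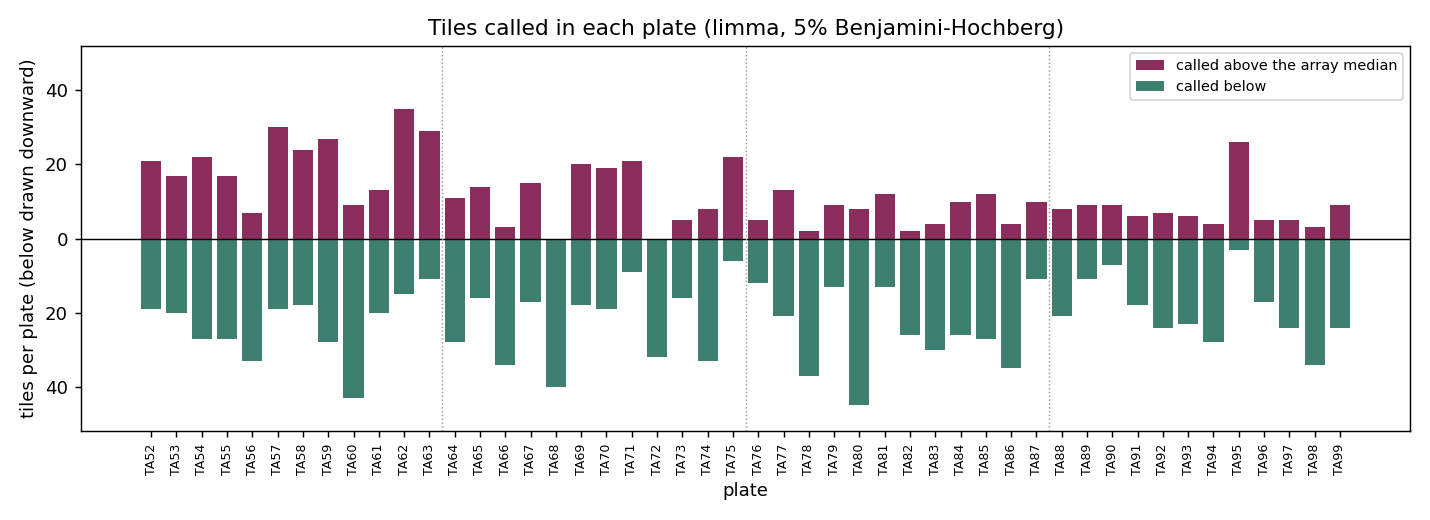
Number of tiles in each plate called above (drawn upward) and below (drawn downward) the array median in the limma fit over all features, with dotted lines between the 4 blocks of 12 plates. Bars above reach 35 tiles in TA62 and are absent in TA68 and TA72, and bars below reach 45 tiles in TA80.

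More tiles were called below than above in 37 of the 48 plates, more above than below in 10, and equal numbers in 1. Over all features, calls below (19.4%) also outnumbered calls above (17.0%), and the balance of the sides depends on the centre. TA68 and TA72 had no tile called above, and TA72 is named for that count. TA58 had the largest spread within a plate, an SD of 0.45 units over its tile means, and TA90 the smallest, 0.18. TA90 is likewise named after its value was seen.

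At the lower edge of the range the plate median, averaged over the replicates, fell from 0.50 units in TA51 to 0.051 in TA52. TA50 and TA51, just outside, had medians of 0.21 and 0.41 units in replicate 1 and of 0.42 and 0.59 in replicate 2. TA52 and TA53, just inside, had 0.035 and -0.0052 in replicate 1 and 0.067 and 0.062 in replicate 2. Among single tiles, the level did not fall exactly at the plate boundary. The last 12 tiles of TA51 had medians of -0.00083 and 0.097 units, with 5 called above and 4 below, whereas the first 12 tiles of TA52 had 0.45 and 0.47, with 7 above and 0 below. The last 4 tiles of TA51 were called above, with means from 0.51 to 0.88, so the opening stretch of TA52 continued across the plate end. At the upper edge, TA98 and TA99 had medians of -0.078 and -0.075 in replicate 1 and of -0.21 and -0.16 in replicate 2. TB00 and TB01 beyond it had -0.017 and 0.018 in replicate 1 and -0.011 and -0.082 in replicate 2.

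The 2 highest tiles of the range were neighbours in the opening stretch of TA52. TA52A02 had 0.91 units in replicate 1 and 1.15 in replicate 2, with a mean of 1.03 ± 0.17 (SD, n = 2). TA52A03 had 0.97 and 1.07, with a mean of 1.02 ± 0.07 (SD, n = 2). The stretch covered the first 5 wells of row A, all called above, with scores between 0.57 and 0.97 in replicate 1 and between 0.57 and 1.15 in replicate 2. With the last 4 tiles of TA51 they formed 9 successive tiles called above.

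The 2 lowest tiles of the range, which are also the lowest of the whole array, were neighbours in TA58. TA58A10 had -2.43 units in replicate 1 and -1.91 in replicate 2, with a mean of -2.17 ± 0.37 (SD, n = 2). TA58A11 had -2.32 and -2.01, with a mean of -2.16 ± 0.22 (SD, n = 2). The tile before the pair had -0.28 and -0.053 units and the tile after it 0.25 and 0.20, and neither was called below. Earlier in the same row, wells 3 to 7 were all called below, with means from -0.61 to -0.39. TA58 as a whole was not low, with medians of 0.0015 and 0.15 and with 24 tiles called above and 18 below.

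**Figure D4:**
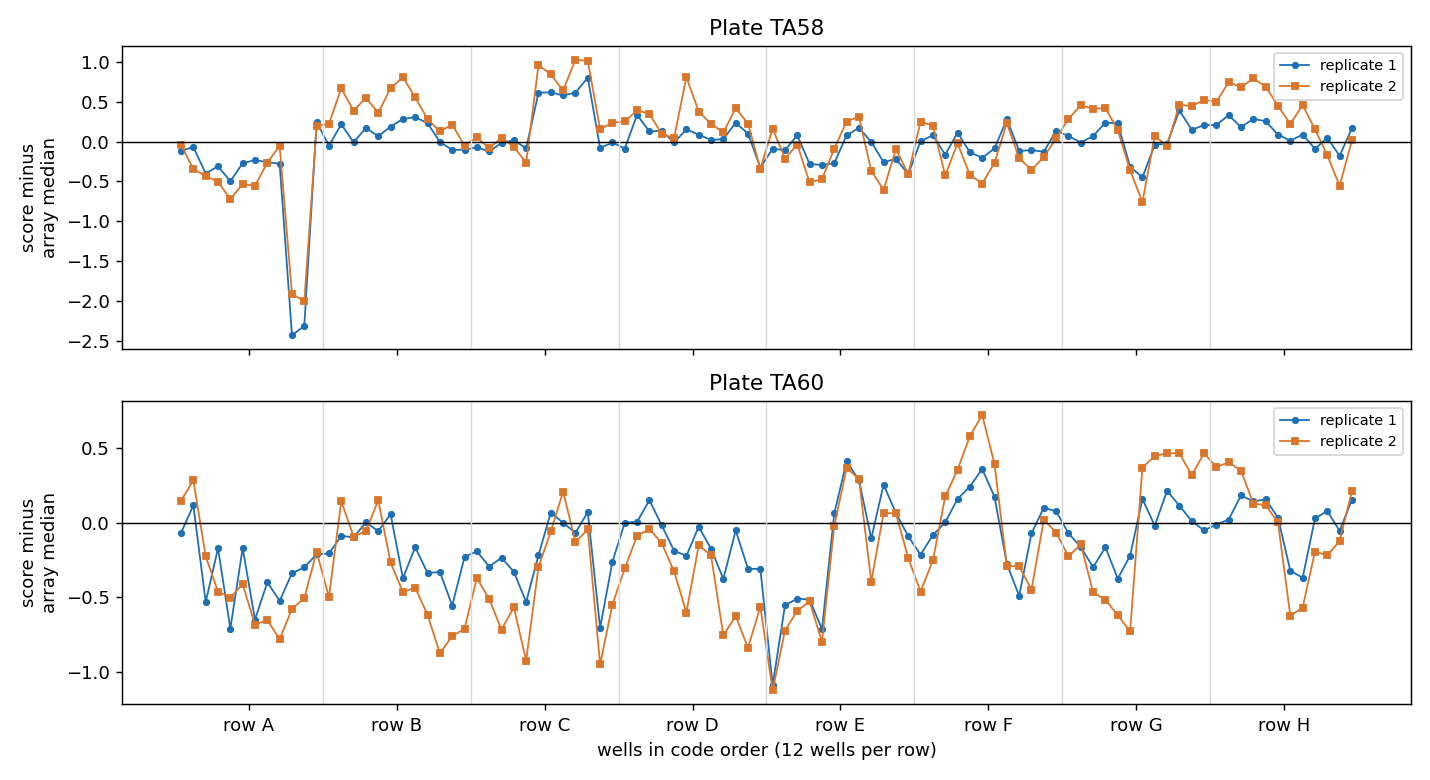
Score minus the array median (score units) of each well of TA58 and TA60 in code order, row A to row H, for replicate 1 (circles) and replicate 2 (squares). In TA58 the low pair in row A reaches -2.43 in replicate 1, between neighbours at -0.28 and 0.25, and in TA60 successive low wells form broad stretches in rows A to E.

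Of the 23 features of the array with a mean at or below -1 units, 11 lay in this range. The range holds 21.2% of the measured features. Some of the 11 tiles were neighbours, and their number was not tested. The 11 tiles formed 8 sites, 5 of 1 tile and 3 of 2 successive tiles, in plates TA53, TA56, TA58, TA60, TA84, TA85, TA88 and TA94. Those plates other than TA53, TA58 and TA60 are named because their tiles were seen to be low. The lowest site after the pair in TA58 was a single tile in TA53, with -2.23 units in replicate 1 and -1.69 in replicate 2. A pair in TA84 averaged -1.68 and -1.56, and a single tile in TA94 had -1.74 and -1.59. The surroundings of the low sites were mixed. In TA53, TA58 and TA84 no adjoining tile was called below. The sites in TA56, TA60, TA85 and TA88 lay in stretches of 4, 9, 6 and 5 successive tiles called below, and the one in TA94 in a stretch of 3. In TA85, TA88 and TA94 the site opened the stretch. The median of the means over the 8 sites was -0.19 units at the tile before the site and -0.31 at the tile after it. It was 0.069 at 2 tiles before and -0.11 at 2 tiles after.

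The 11 highest tiles formed 7 sites in 6 plates, with means from 0.82 to 1.03 units, and their 14 adjoining tiles had a median of 0.54 units. Of these 14, 10 were called above, while 7 of the 16 tiles adjoining the low sites were called below. The stretches of called tiles that held the sites had a median length of 5 tiles for the high sites and 3.5 for the low ones, each from 1 to 9 tiles. Before the high sites the median over sites was 0.63 units at the adjoining tile and 0.61 at 2 tiles, and after them 0.47 and 0.11. Sites were picked by their own values, so both profiles are descriptions.

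**Figure D5:**
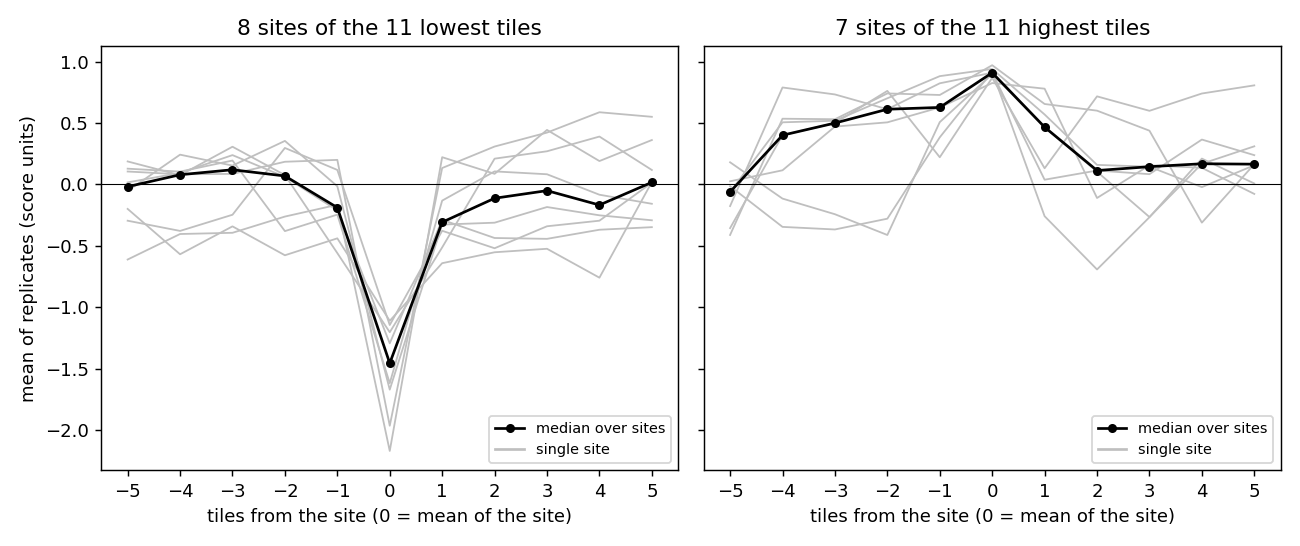
Mean of the replicates (score units) at tiles up to 5 positions from the 8 sites of the 11 lowest tiles and the 7 sites of the 11 highest tiles, with each site in grey and the median over sites in black (tiles before the site in TA52 belong to TA51). The low median is -1.45 at the site and -0.19 and -0.31 just before and after it, and the high median is 0.91, 0.63 and 0.47.

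Called tiles often had a called neighbour. The 577 tiles above formed 288 stretches of successive wells within plates, of which 170 were single tiles, and 70.5% of the tiles had a neighbour on the same side. The 1078 tiles below formed 550 stretches, 302 of them single, and 72.0% had such a neighbour. Over the whole array these shares were 82.0% above and 72.1% below. Stretches of at least 5 tiles numbered 28 above, in 17 plates, and held 31.7% of the tiles above, beside 54.6% over the whole array. There were 36 such stretches below, in 27 plates, holding 20.2% of the tiles below, beside 24.3% over the whole array. Of the 28 long stretches above, 21 lay in TA52 to TA63, 5 in TA64 to TA75, and 1 in each of the last 2 blocks. The long stretches below were spread more evenly, with 14, 5, 10 and 7 in the successive blocks.

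The longest stretch above ran over 14 tiles of TA59, from well 12 of row F to well 1 of row H. Its mean was 0.39 units in replicate 1 and 0.71 in replicate 2, and every tile of it lay above the array median in both replicates, from 0.16 to 0.52 and from 0.37 to 1.02. A stretch of 12 tiles in TA63, from well 9 of row A to well 8 of row B, averaged 0.41 and 0.67. One of 9 tiles in TA58, from well 10 of row G to well 6 of row H, averaged 0.23 and 0.59. In these stretches of TA59, TA63 and TA58, replicate 2 was the higher one. A stretch in TA70, from well 9 of row C to well 5 of row D, also had 9 tiles. It held 2 of the 11 highest tiles, which averaged 0.90 and 1.04.

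The 3 longest stretches below were all in TA60. The longest held 11 tiles, from well 7 of row B to well 5 of row C, with means of -0.33 units in replicate 1 and -0.63 in replicate 2. A stretch of 9 tiles from well 3 to well 11 of row A averaged -0.42 and -0.54. Another 9 tiles, from well 9 of row D to well 5 of row E, averaged -0.49 and -0.73 and held 1 of the 11 lowest tiles. Long stretches below had an average tile score of -0.30 in replicate 1 and -0.56 in replicate 2, close to the -0.27 and -0.47 of single tiles below. Above the median, long stretches averaged 0.36 and 0.63, and single tiles 0.25 and 0.42.

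Successive wells were alike within plates after removal of plate medians. The correlation was r = 0.54 over 4548 pairs of adjacent wells, 0.29 at 2 wells apart, 0.089 at 4 and 0.037 at 8, as a description of tiles that share arrays. Between a well in replicate 1 and the next well in replicate 2 it was 0.43. In the rest of the array adjacent wells correlated with r = 0.59 and wells 4 apart with r = 0.18. By block, the correlation of adjacent wells was 0.63 in TA52 to TA63, then 0.49, 0.46 and 0.46. Position on the plate moved the medians little. Medians of the rows over all 48 plates ranged from -0.036 to -0.00096 units in replicate 1 and from -0.098 to -0.043 in replicate 2. Medians of the well numbers ranged from -0.046 to -0.0066 and from -0.10 to -0.037.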

How the data were processed

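The deposited table holds 1 ratio score per feature and array. It was made by the authors from 2-colour arrays of directly labelled, amplified DNA, per the labels' protocols. No source used here states the normalization, the array design or the genome build. Both arrays of a dye swap, identical in value, were averaged, and each replicate was centred on its median over all 21732 features. Departure from zero was tested by limma 3.58.1 (lmFit, eBayes; R 4.3.3). The fit was also run on simulated data, with independent features and the same spread in both replicates. In the real data the median absolute deviation was 0.20 in replicate 1 and 0.38 in replicate 2, and adjacent wells were alike. The simulation therefore does not measure false calls in these data. Summaries used Python 3.11.15, numpy 2.4.6 and pandas 2.3.3, and plots matplotlib 3.10.9. The first 4 characters of a code name the plate, and stretches follow code order within a plate. By rule, the text names the 2 highest and 2 lowest tiles of equal sign in both replicates, the 4 highest and 4 lowest plates, the plates at the edges, the 3 longest stretches on each side and those with a named tile. Stretches of equal length were taken in code order. Other plates named were chosen after their values were seen. The members, lists and rules were chosen with earlier results of these data known. Because the members were delimited with the same values, no p is given for a tile or plate.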

Additional observations from a re-analysis of the deposited data

How the results depend on the processing

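The counts of called tiles (577 above, 1078 below) stayed within 1.5 times when the replicates were centred on plates TB00 to TB49 (735 and 845), scaled to the same median absolute deviation (717 and 1262), quantile normalized (833 and 1396), or fitted with a variance trend (653 and 933) or robust variance (578 and 1081) alone. The balance of the sides depends on the centre. Without centring, which leaves the deposited medians above zero, 1349 tiles were above and 167 below, and with centring on the mode 329 were above and 1308 below. With trend and robust variance together 249 and 12 were called, at an adjusted threshold of 1% 365 and 708, and by size in both replicates 324 and 588. The cause of the trend and robust counts was not tested. All 577 tiles above remained called without centring, and 167 of the 1078 below. Leaving out the centring moves every score upward, so the retention above is no check on those calls. Under each of these settings TA52 to TA63 kept a higher share of calls above than any later block. The settings reuse the same 2 replicates and the blocks were cut after the values were seen, so this order is no independent check.

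Without replicate 1 or 2, the tiles at least 0.5 units above (131) numbered 67 to 282 and those below (144) 54 to 526, the lower values without replicate 2. The plates at least 0.1 units above (2) numbered 3 to 4, and those below (5) 6 to 19, the higher values without replicate 1. They numbered 4 and 0 with centring on TB00 to TB49, 0 and 13 after scaling, and 1 and 10 with plate means. Stretches above (288) numbered 169 by the size rule, and the longest below (11 tiles) then had 7. The median of the tiles (-0.043) was 0.14 without centring and 0.0037 with centring on TB00 to TB49, so its side follows the centre. Trend or robust variance alone, the mode, stretches across plate ends alone and the blocks were chosen after seeing the data. Each score already pairs a precipitate with its own input. No paired comparison between groups was possible because there was 1 group only.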
